A study of Rattus norvegicus with 12 samples.

Results

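The transcription factor p53 is held at a low level by Mdm2, accumulates after DNA damage and other stress, and then raises a set of target genes that halt the cell cycle, repair DNA, limit oxidative damage or start cell death. Mdm2 is itself a target, so the pathway carries its own brake. In liver, p53 targets are a common readout of genotoxic and oxidative stress. Here 10 such genes were followed in rat liver after exposure to triazole fungicides: Ccng1 (cyclin G1), Rprm (reprimo, an inhibitor of the G2 to M transition), Cdkn1a (the cyclin-dependent kinase inhibitor p21), Gadd45a (a stress and growth arrest gene), Mdm2, Tp53inp1 (a nuclear protein that promotes p53-dependent death and autophagy), the sestrins Sesn1 and Sesn2 (inhibitors of mTORC1 with antioxidant roles), Bax (a pore-forming protein of the mitochondrial death pathway) and Btg2 (an antiproliferative cofactor of transcription). The members were taken by gene name from the array's probe set annotation. Of the 10, 8 had a probe set assigned to them alone, among 14217 genes that the annotation places on the array. All 8 were tested, among 11842 tested genes. The only probe set annotated with Bax carries 2 genes and is given by its ID. The annotation used assigns no probe set to Btg2, so only its promoter is described.

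The animals were adult male Sprague-Dawley rats, 10 weeks old, dosed by gavage every 24 h over 72 h. Of the 4 groups, 1 received myclobutanil and 1 propiconazole, both at 300 mg/kg/day, 1 received triadimefon at 175 mg/kg/day, and 1 was the control, whose vehicle the labels do not state. Each group held 3 rats, and RNA of every liver was hybridised separately, without pooling, to 12 Affymetrix Rat Genome 230 2.0 arrays in all. All 3 compounds are triazoles, made to inhibit fungal sterol demethylase; a nitrile sets myclobutanil apart, a dioxolane ring propiconazole, and a ketone with an aryl ether triadimefon. The comparisons ask how each compound changed expression against control, and how myclobutanil differed from propiconazole at their shared dose.

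Expression is given as the deposited score per probe set after quantile normalization. The score behaves like a logarithm, but its base and centring are not stated, so differences are in log-like units and no fold change is given. Differences carry the SE of the limma fit, and the median distance from a difference to the end of its 95% interval was 0.141 over all tested probe sets. The array of myclobutanil replicate 1 stood apart, with a deposited median of 0.157 against 0.0182 to 0.0552 on the other 11 arrays and a median correlation with the others of 0.920 against 0.949 to 0.975. The differences of the members that involve that group are therefore also given without it where they moved by over 1.5 times or changed their call, and for Ccng1 and Rprm against control. The 3' minus 5' difference of beta-actin, a sign of RNA quality, averaged 0.861 in myclobutanil, 0.655 in propiconazole, 0.851 in triadimefon and 0.640 in control livers, and its ranges overlapped across the groups; its part in the results was not tested. Hepatocyte markers had a mean level of 3.30 to 3.53 on the 12 arrays, against a median of 0.227 over the mean levels of all tested probe sets. The tissue is bulk liver, in which fewer cells of a type and less RNA per cell cannot be told apart.

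The promoter windows of the genes that moved most clearly, Ccng1 and Rprm, are shown beside that of Cdkn1a, the textbook p53 target. They are RefSeq sequences of the GRCr8 assembly, 250 bases before to 50 bases after the transcript start that the promoter table uses, written 5' to 3' on the gene's strand, with a match to the p53 consensus of 10 letters in capitals. A full p53 response element is a pair of such decamers, and the marked stretch is only 1 of them. Only exact matches are in capitals. A neighbouring decamer that departs from the consensus by a letter, as directly after the match in Cdkn1a, stays in lower case. For Ccng1 and Rprm the start used is the 5' end of the annotated gene, as it is for Gadd45a, Sesn2 and Btg2, while for Cdkn1a it lies 112 bases inside the gene's span and for Mdm2 and Sesn1 it is also an internal start. Ccng1 lies at chr10:25684827-25685126 on the minus strand, Rprm at chr3:58949986-58950285 on the minus strand and Cdkn1a at chr20:7150682-7150981 on the plus strand.
Ccng1: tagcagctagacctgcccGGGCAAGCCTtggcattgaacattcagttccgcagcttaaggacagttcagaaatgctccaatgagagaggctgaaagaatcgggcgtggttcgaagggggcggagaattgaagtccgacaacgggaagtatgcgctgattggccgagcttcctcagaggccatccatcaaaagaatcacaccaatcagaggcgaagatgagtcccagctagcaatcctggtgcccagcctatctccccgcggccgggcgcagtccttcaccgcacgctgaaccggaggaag
Rprm: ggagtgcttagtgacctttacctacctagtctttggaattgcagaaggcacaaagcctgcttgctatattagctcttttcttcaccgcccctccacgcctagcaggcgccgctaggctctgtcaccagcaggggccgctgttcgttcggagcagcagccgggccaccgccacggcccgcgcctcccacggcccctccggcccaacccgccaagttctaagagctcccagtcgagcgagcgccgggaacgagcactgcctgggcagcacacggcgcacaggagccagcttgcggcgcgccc
Cdkn1a: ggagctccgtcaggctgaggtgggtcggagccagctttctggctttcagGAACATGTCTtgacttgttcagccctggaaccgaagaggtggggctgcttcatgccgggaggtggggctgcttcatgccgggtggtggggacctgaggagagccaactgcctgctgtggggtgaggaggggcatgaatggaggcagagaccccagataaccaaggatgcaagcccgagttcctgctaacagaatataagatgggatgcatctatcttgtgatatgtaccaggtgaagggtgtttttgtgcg
The consensus reads the same on both strands, so 1 search covers both. Ccng1 held 1 match, GGGCAAGCCT, whose first base is at position -232 relative to the start used, and Cdkn1a held 1, GAACATGTCT, at position -201 relative to its internal start. Rprm held none in this window. Of the 8 members with a promoter in the table used, 4 held a match, the others being Gadd45a (GGGCTAGCCC) and Sesn1 (AAGCTTGTTT), while Rprm, Sesn2, Mdm2 and Btg2 held none. A match was present in 7.89% of all 27457 promoters of this length. A match is a description of the letters, not of binding. The Rprm window held 25 CpG dinucleotides, against a median of 7 over all promoters, and the Ccng1 window held 18. The windows of Mdm2, Btg2, Sesn1 and Sesn2 held 31, 31, 27 and 23, and those of Gadd45a and Cdkn1a 14 and 7. A high count was thus not particular to Rprm and Ccng1.

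Ccng1 and Rprm moved in opposite directions. Ccng1, a cyclin that recruits a phosphatase to Mdm2 and is among the most regular p53 targets in rodent liver, was higher on all 9 arrays from treated rats than on any control array. Rprm was lower on all 9. Under propiconazole, 1 of the 8 tested members rose (Ccng1) and 1 fell (Rprm), which is 25%, while 1.43% of all 21729 probe sets were called (0.81% higher, 0.621% lower). Under triadimefon the same pair of genes was called, Ccng1 higher and Rprm lower, 25% of the 8 members against 0.769% of all probe sets (0.488% higher, 0.281% lower). Under myclobutanil none of the 8 was called, while 1.82% of all probe sets were (1.04% higher, 0.787% lower); by limma at an unadjusted p under 0.05, Ccng1 was higher and Rprm lower, 2 of the 8, against 21.1% of all probe sets. Without myclobutanil replicate 1 the count of members called under myclobutanil was still 0, while the called probe sets numbered 671 in place of 396. The 3 comparisons share the control arrays, so their results for these genes are not independent. The members were chosen with earlier results of these data known. Each is also represented by its brightest probe set, while the shares run over all probe sets. Member counts beside these shares, here and below, therefore do not measure enrichment among p53 targets.

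Ccng1 (probe set 1367764_at) had 0.810, 0.804 and 1.03 in the livers of myclobutanil rats, 1.29, 1.11 and 1.33 under propiconazole, 1.09, 1.10 and 1.11 under triadimefon, and 0.511, 0.738 and 0.481 in control livers. The means were 0.881 ± 0.128 for myclobutanil, 1.25 ± 0.116 for propiconazole, 1.10 ± 0.0134 for triadimefon and 0.577 ± 0.140 for control (SD, n = 3 each). The lowest treated array lay above the highest control array, and the propiconazole and triadimefon arrays all lay above the myclobutanil arrays. Triadimefon was given at a lower dose, so its place in this order is a description only. Ccng1 is a well expressed gene here, at percentile 89.2 of the mean levels of all probe sets. It rose under propiconazole by 0.67 ± 0.09 (SE; 95% interval 0.47 to 0.87; limma, Benjamini-Hochberg adjusted p = 0.00897), with the 29th smallest p of the 21729 probe sets. It rose under triadimefon by 0.52 ± 0.09 (interval 0.33 to 0.72; limma adjusted p = 0.0226). The myclobutanil difference was 0.30 ± 0.09 (interval 0.11 to 0.50; limma adjusted p = 0.105), and 0.34 without replicate 1 of that group (limma adjusted p = 0.0856), so it did not pass. The propiconazole call was lost in 1 of 12 refits that each left out 1 array, that without control replicate 3 (limma adjusted p = 0.0585). The triadimefon call was lost without control replicate 1 (limma adjusted p = 0.118), control replicate 3 (0.130), triadimefon replicate 1 (0.0842), triadimefon replicate 2 (0.104) or triadimefon replicate 3 (0.0970).

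Rprm (1390672_at) had 0.134, 0.163 and 0.116 in myclobutanil livers, -0.171, -0.183 and -0.183 in propiconazole livers, -0.345, -0.313 and -0.174 in triadimefon livers, and 0.277, 0.250 and 0.190 in control livers. The control arrays were highest, the myclobutanil arrays next, and the propiconazole and triadimefon arrays lowest, with overlap only between the last pair. The lower dose of triadimefon makes its place here a description as well. The means were 0.137 ± 0.0241 for myclobutanil, -0.179 ± 0.00719 for propiconazole, -0.277 ± 0.0909 for triadimefon and 0.239 ± 0.0446 for control (SD, n = 3 each). Rprm fell by 0.42 ± 0.04 under propiconazole (SE; interval of the difference -0.51 to -0.33; limma adjusted p = 0.00470), the 3rd smallest p of that comparison. It fell by 0.52 ± 0.04 under triadimefon (interval -0.61 to -0.42; limma adjusted p = 0.00157), the smallest p of all 21729 probe sets there. The myclobutanil difference was -0.10 ± 0.04 (interval -0.19 to -0.01; limma adjusted p = 0.200) and -0.10 without replicate 1 (adjusted p = 0.212). Both falls were called in all 12 refits that left out 1 array. Rprm is a dim probe set, at percentile 42.5 of mean levels. Its means under propiconazole and triadimefon lay below -0.123, the lowest mean over all arrays among probe sets kept for testing, and with a filter on 50% of dim probe sets it was not tested at all. The files hold no detection calls, so whether Rprm was above background in those livers is not known.

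**Figure D1:**
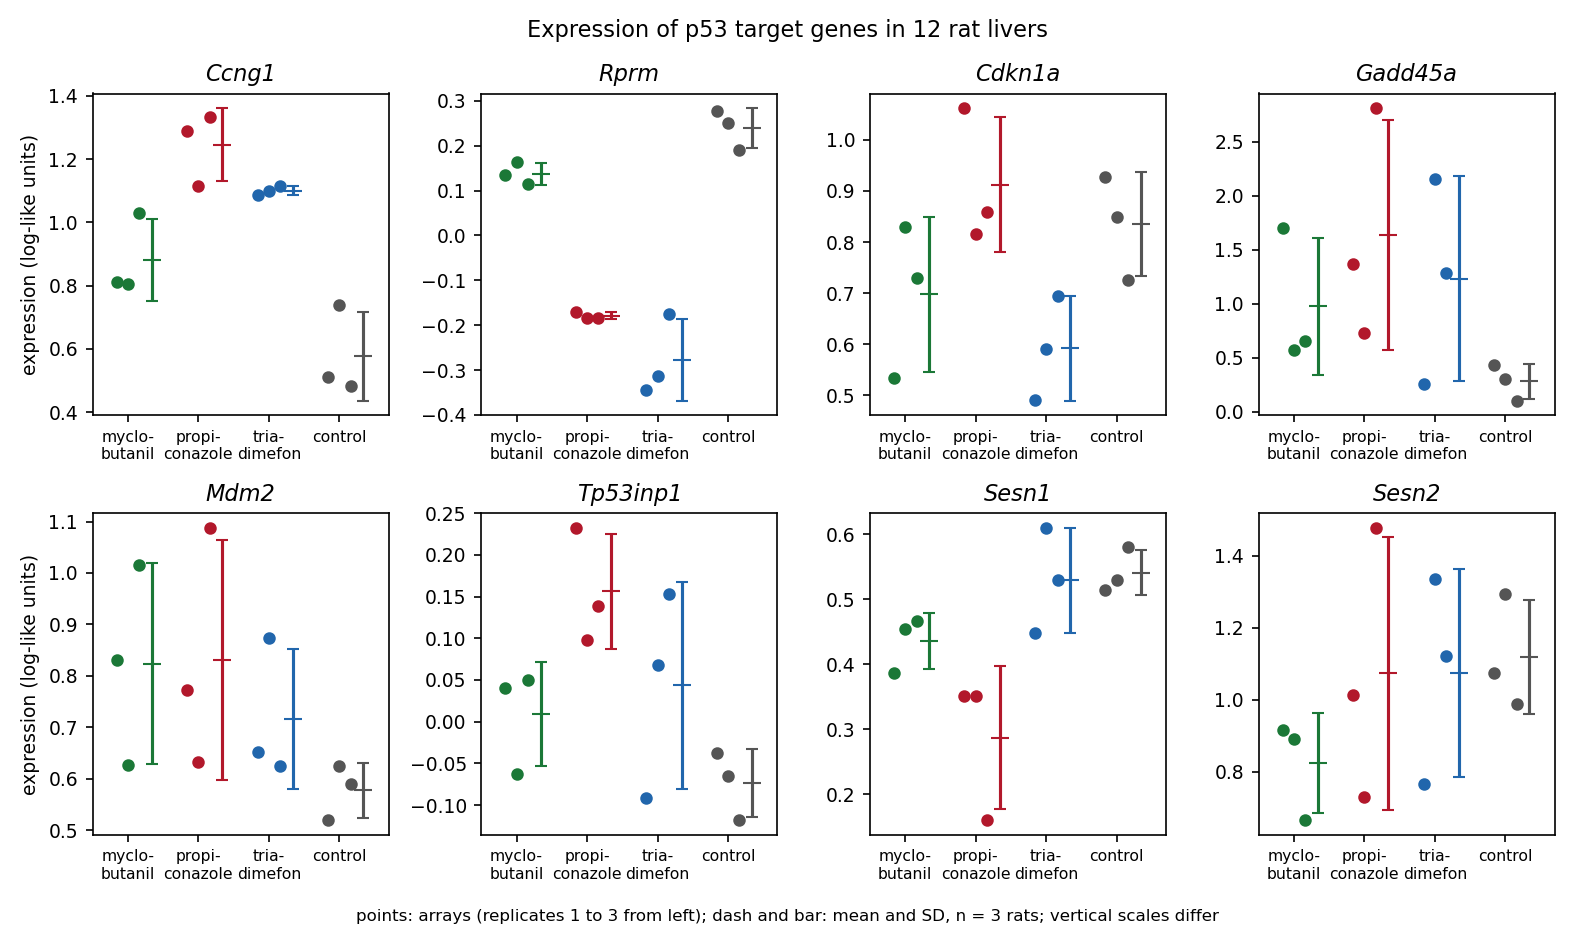
Quantile normalized expression (vertical axes, log-like units, scales differ) of the 8 tested p53 target genes on 12 arrays; points are rats (replicates 1 to 3 from the left), the dash and bar are the mean and SD of 3 rats. Ccng1 was above, and Rprm below, every control array on all 9 arrays from treated rats, while Gadd45a ran from 0.256 to 2.81 among treated rats.

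Cdkn1a and Gadd45a, the other arrest genes, were not called in any comparison. Cdkn1a (1388674_at) had 0.533, 0.830 and 0.730 in myclobutanil, 1.06, 0.815 and 0.859 in propiconazole, 0.490, 0.591 and 0.695 in triadimefon, and 0.928, 0.850 and 0.727 in control livers. Only the triadimefon arrays lay apart from control, all 3 of them below. The differences from control were -0.14 (95% interval -0.35 to 0.07; limma adjusted p = 0.423) for myclobutanil, 0.08 (-0.13 to 0.29; adjusted p = 0.772) for propiconazole and -0.24 (-0.45 to -0.03; adjusted p = 0.301) for triadimefon. Without myclobutanil replicate 1 the myclobutanil difference of Cdkn1a was -0.06 (limma adjusted p = 0.744). A dimmer Cdkn1a probe set, 1387391_at, gave -0.04 for myclobutanil (limma adjusted p = 0.687), 0.10 for propiconazole (0.440) and -0.11 for triadimefon (0.427).

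Gadd45a (1368947_at) had 1.70, 0.572 and 0.652 in myclobutanil, 1.37, 0.731 and 2.81 in propiconazole, 0.256, 2.15 and 1.29 in triadimefon, and 0.434, 0.307 and 0.104 in control livers. Single rats ranged widely within each treated group, while the control rats lay close together. The largest difference of any member belonged to Gadd45a under propiconazole, 1.36 ± 0.54 (SE; interval 0.17 to 2.54), and it did not pass (limma adjusted p = 0.280). Those of myclobutanil, 0.69 (interval -0.49 to 1.88; adjusted p = 0.476), and triadimefon, 0.95 (-0.24 to 2.14; adjusted p = 0.489), did not pass either, and triadimefon arrays overlapped control. Without myclobutanil replicate 1 the myclobutanil difference was 0.34 (limma adjusted p = 0.748). The SD of Gadd45a within groups was 0.785, the 10th largest of 21729 probe sets. Propiconazole replicate 3 was the highest array for Gadd45a, and also for Mdm2, Sesn2 and Ccng1. Triadimefon replicate 2 ranked 2nd for Gadd45a and Sesn2 and 3rd for Mdm2.

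Mdm2 (1383288_at), the ubiquitin ligase that marks p53 for degradation, had 0.830, 0.626 and 1.02 in myclobutanil, 0.772, 0.633 and 1.09 in propiconazole, 0.651, 0.873 and 0.625 in triadimefon, and 0.519, 0.624 and 0.589 in control livers. All 9 treated arrays lay above the control arrays, the closest by 0.625 in triadimefon to 0.624 in control. In the deposited values myclobutanil and control overlapped, with 0.616 on myclobutanil replicate 2 against 0.619 on control replicate 2. The differences were 0.25 (95% interval -0.03 to 0.52; limma adjusted p = 0.278) for myclobutanil, 0.25 (-0.02 to 0.53; adjusted p = 0.382) for propiconazole and 0.14 (-0.13 to 0.41; adjusted p = 0.674) for triadimefon. The Mdm2 probe set 1384427_at differed by 0.22 for myclobutanil, 0.36 for propiconazole and 0.25 for triadimefon. The dimmer 1383485_at differed by 0.01 for myclobutanil, 0.22 for propiconazole and 0.09 for triadimefon, and neither probe set was called. On both, myclobutanil arrays overlapped control and propiconazole arrays lay above it, while triadimefon arrays lay above control only on 1384427_at. Tp53inp1 (1391826_at) had 0.0403, -0.0626 and 0.0499 in myclobutanil, 0.233, 0.0981 and 0.138 in propiconazole, -0.0911, 0.0682 and 0.153 in triadimefon, and -0.0375, -0.0650 and -0.118 in control livers. The 3 propiconazole arrays were above all control arrays, and the other groups overlapped control. Tp53inp1 is a dim probe set, at percentile 48.4 of mean levels. Its differences were 0.08 for myclobutanil (limma adjusted p = 0.443), 0.23 for propiconazole (interval 0.10 to 0.36; adjusted p = 0.0982) and 0.12 for triadimefon (adjusted p = 0.434).

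Neither sestrin was called. Sesn1 (1372248_at) had 0.387, 0.455 and 0.467 in myclobutanil, 0.351, 0.351 and 0.160 in propiconazole, 0.449, 0.610 and 0.529 in triadimefon, and 0.514, 0.529 and 0.580 in control livers. The propiconazole and myclobutanil arrays were below every control array and the triadimefon arrays overlapped them. The propiconazole difference was -0.25 ± 0.06 (SE; interval -0.39 to -0.12; limma adjusted p = 0.0770), and it passed without myclobutanil replicate 1 (-0.26; adjusted p = 0.0387). The second Sesn1 probe set, 1395809_at, differed by 0.005 under propiconazole, so the probe sets disagree. The Sesn1 differences for myclobutanil and triadimefon were -0.10 (limma adjusted p = 0.350) and -0.01 (adjusted p = 0.963), the sign of the triadimefon one turning under other scalings. Sesn2 (1391607_at) had 0.917, 0.890 and 0.665 in myclobutanil, 1.01, 0.729 and 1.48 in propiconazole, 0.765, 1.34 and 1.12 in triadimefon, and 1.08, 1.29 and 0.988 in control livers. Only its myclobutanil arrays lay apart from control, below it, with a difference of -0.30 (interval -0.70 to 0.11; limma adjusted p = 0.380). Under propiconazole and triadimefon Sesn2 differed by -0.05 and -0.04, with intervals of -0.45 to 0.36 in both and a sign that turned with median centring. A second Sesn2 probe set, 1396901_at, was among the dim ones left out.

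The death gene arm was represented by 1369122_at, whose annotation gives Bax with another gene. It had 0.337, 0.516 and 0.379 in myclobutanil, 0.417, 0.497 and 0.575 in propiconazole, 0.433, 0.444 and 0.414 in triadimefon, and 0.449, 0.420 and 0.375 in control livers. All 3 treated groups overlapped control. Its differences were -0.004 for myclobutanil (95% interval -0.13 to 0.12; limma adjusted p = 0.976), 0.08 for propiconazole (-0.04 to 0.21; adjusted p = 0.553) and 0.02 for triadimefon (-0.11 to 0.14; adjusted p = 0.944).

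Across the 8 members the arrays of a treated group lay wholly to one side of control more often than calls were made. Under myclobutanil it held for 6 members (3 above, 3 below), against 23.3% of all probe sets (10.2% above, 13.1% below). Those above include Mdm2, which overlapped control in the deposited values. Under propiconazole it held for 6 (4 above, 2 below), against 27.8% (12.1% above, 15.7% below). Under triadimefon it held for 4 (2 above, 2 below), against 28.3% (12.5% above, 15.8% below). At an unadjusted p under 0.05 by limma, 3 members were higher and 2 lower under propiconazole, against 14.5% of all probe sets, and 1 was higher and 2 lower under triadimefon, against 13.4%. The median difference of the 8 members was -0.01 under myclobutanil, 0.15 under propiconazole and 0.05 under triadimefon, while the median of all tested probe sets was -0.01 in each.

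**Figure D2:**
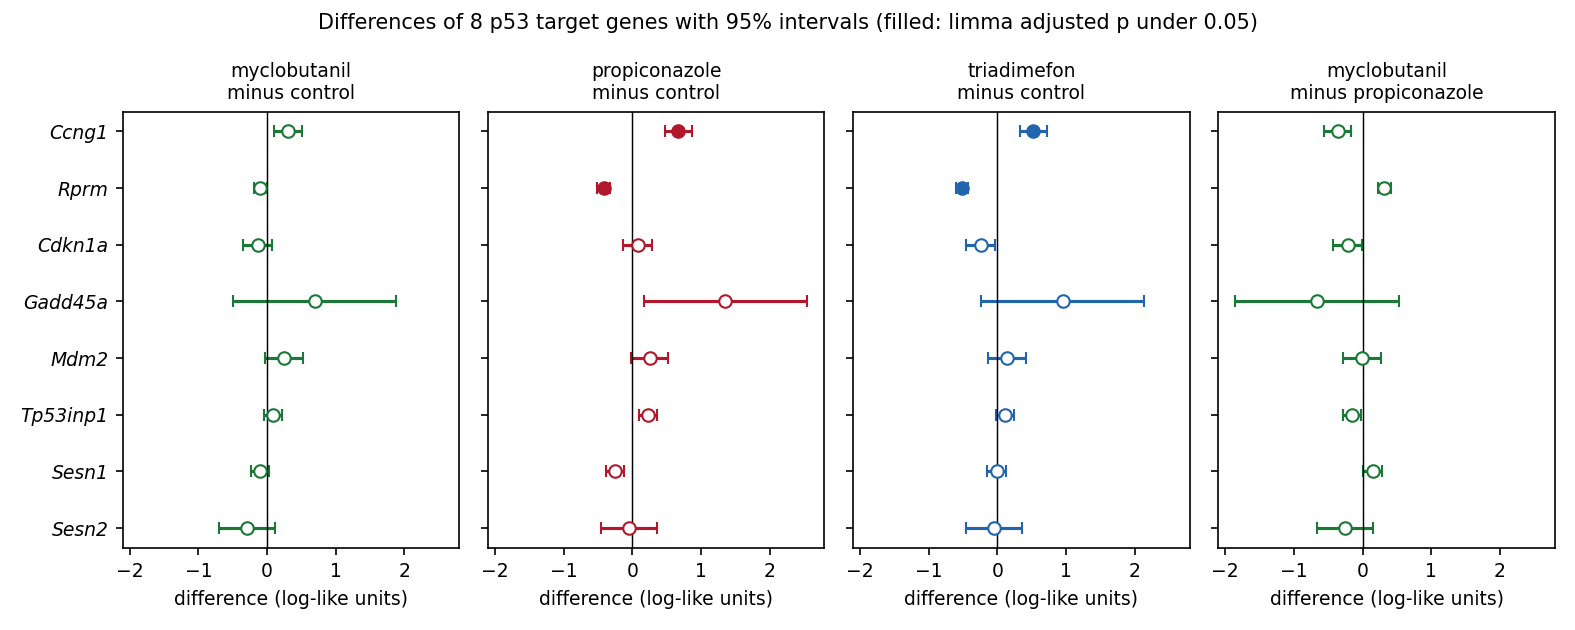
Differences of the 8 tested p53 target genes (horizontal axis, log-like units; points with 95% intervals from limma over 3 rats per group) for each compound minus control and for myclobutanil minus propiconazole; filled points had a limma adjusted p under 0.05. The filled points are Ccng1 and Rprm under propiconazole and triadimefon, and Gadd45a has the widest intervals.

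At the shared dose of 300 mg/kg/day, myclobutanil and propiconazole were compared directly, the only pair of compounds with matched dose and time. No probe set was called (0 of 21729, 0%; 2203 by limma at an unadjusted p under 0.05, 10.1%), and so none of the 8 members, of which 2 were higher and 3 lower at that unadjusted level, against 4.88% and 5.26% of all probe sets. Groups did not overlap for 4 members (2 above, 2 below), against 13.4% of all probe sets (6.31% above, 7.13% below). Rprm was higher under myclobutanil than under propiconazole by 0.32 ± 0.04 (SE; interval 0.22 to 0.41), with groups that did not overlap and the 3rd smallest p of the comparison, and did not pass (limma adjusted p = 0.0593). The Rprm difference was called in 3 of 12 refits that left out 1 array, those without myclobutanil replicate 1 (0.32; limma adjusted p = 0.0369), triadimefon replicate 1 (adjusted p = 0.0442) or triadimefon replicate 3 (adjusted p = 0.0236). Ccng1 was lower under myclobutanil by 0.36 units (difference -0.36, interval -0.56 to -0.17; limma adjusted p = 0.295), again without overlap. For Cdkn1a the difference was -0.21 (interval -0.42 to -0.005; adjusted p = 0.490), for Tp53inp1 -0.15 (-0.28 to -0.02; adjusted p = 0.478) and for Sesn1 0.15 (0.01 to 0.28; adjusted p = 0.479). Mdm2 differed by -0.01 (interval -0.28 to 0.26), Sesn2 by -0.25 (-0.66 to 0.16) and Gadd45a by -0.66 (-1.85 to 0.53). Without myclobutanil replicate 1, the difference was -1.02 for Gadd45a (limma adjusted p = 0.574) and -0.13 for Cdkn1a (adjusted p = 0.648). These intervals do not show that the compounds acted alike. Triadimefon was given at a lower dose, 175 mg/kg/day, and its differences from the other compounds were not tested. Over all 4 groups together, the limma F test called Rprm (F = 69.0, adjusted p = 0.00283, the smallest p of all probe sets) and Ccng1 (F = 20.7, adjusted p = 0.0189), which is 2 of the 8 members, while 1.07% of probe sets were called; at an unadjusted p under 0.05 it covered 5 members and 15.6% of probe sets. The F test for Ccng1 was not called without control replicate 1 (limma adjusted p = 0.105), control replicate 2 (0.0607), control replicate 3 (0.117) or propiconazole replicate 1 (0.0588).

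The wider pathway was read from 4 lists of other p53 genes: regulators of p53, arrest and growth control, cell death, and DNA repair and metabolism. They held 61 genes, of which 47 were tested. None of the 47 rose in any comparison with control. Under myclobutanil 1 fell and under propiconazole 1 fell, while under triadimefon none was called. Among all probe sets 1.82%, 1.43% and 0.769% were called under myclobutanil, propiconazole and triadimefon, so these counts are near the share over the whole array and are no result about the pathway. At an unadjusted p under 0.05 by limma, 1, 1 and 2 were higher and 9, 7 and 8 lower under myclobutanil, propiconazole and triadimefon. Over all probe sets at that level, 9.2% were higher and 11.9% lower under myclobutanil, 7.73% and 6.77% under propiconazole, and 7.02% and 6.42% under triadimefon. The median over the 47 genes together was -0.02 under each compound, against -0.01 for all probe sets. The medians of the single lists differed more. Under myclobutanil they ran from -0.12 (DNA repair and metabolism) to 0.05 (arrest and growth control). Under propiconazole they ran from -0.07 to 0.02 for the same lists. Under triadimefon they ran from -0.04 (cell death) to 0.02 (arrest and growth control). Bak1, a pore-forming death protein related to Bax, had -0.122, -0.0356 and -0.109 under myclobutanil and 0.0950, 0.0394 and 0.0748 in control livers, and fell by 0.16 ± 0.03 (SE; limma adjusted p = 0.0386). That Bak1 call was made in 3 of 12 refits that left out 1 array, those without myclobutanil replicate 1 (adjusted p = 0.0413), myclobutanil replicate 2 (0.0190) or propiconazole replicate 2 (0.0477), and lost in the others (up to 0.134). Bak1 is also a dim probe set, at percentile 43.2 of mean levels. Tp53bp1, a DNA break repair protein that binds p53, had 0.364, 0.350 and 0.390 under propiconazole and 0.563, 0.526 and 0.610 in control livers, and fell by 0.20 ± 0.04 (limma adjusted p = 0.0475). The Tp53bp1 call was made in 2 of 12 such refits, without myclobutanil replicate 1 (adjusted p = 0.0199) or myclobutanil replicate 3 (0.0439), and lost in the others (up to 0.188).

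Other pathway genes, named because they had the smallest p of their list in a comparison, did not pass. Ccng2, the paralog of Ccng1, differed by -0.36 under myclobutanil (limma adjusted p = 0.0577) and -0.26 under propiconazole (adjusted p = 0.182), the opposite sign to Ccng1. Ddb2, which recognises UV lesions, differed by -0.28 under myclobutanil (adjusted p = 0.0737), and Xpc, its partner in nucleotide excision repair, by -0.25 under propiconazole (adjusted p = 0.126) and -0.26 under triadimefon (adjusted p = 0.138). Mdm4, an inhibitor of p53 related to Mdm2, differed by -0.23 under myclobutanil (adjusted p = 0.192). Under triadimefon the stress kinase Plk3 differed by 0.21 (adjusted p = 0.255) and the endoplasmic reticulum protein Ei24 by -0.29 (adjusted p = 0.211).

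Some members, Gadd45a and Sesn2 among them, are also raised by the stress factor ATF4, and a list of 12 ATF4 targets was read beside them. Of its 11 tested genes none was called against control by limma; at an unadjusted p under 0.05, 3 were higher and 1 lower under myclobutanil, 5 and 0 under propiconazole, and 4 and 1 under triadimefon. In either direction 21.1% of all probe sets passed that level under myclobutanil, 14.5% under propiconazole and 13.4% under triadimefon. The list medians were 0.32 under myclobutanil, 0.33 under propiconazole and 0.28 under triadimefon. Its mean level on single arrays was highest on propiconazole replicate 3 (1.03) and triadimefon replicate 2 (0.968), the arrays with the highest Gadd45a, and was 0.341 to 0.446 in control livers. The part of this list in the values of Gadd45a was not tested.

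**Figure D3:**
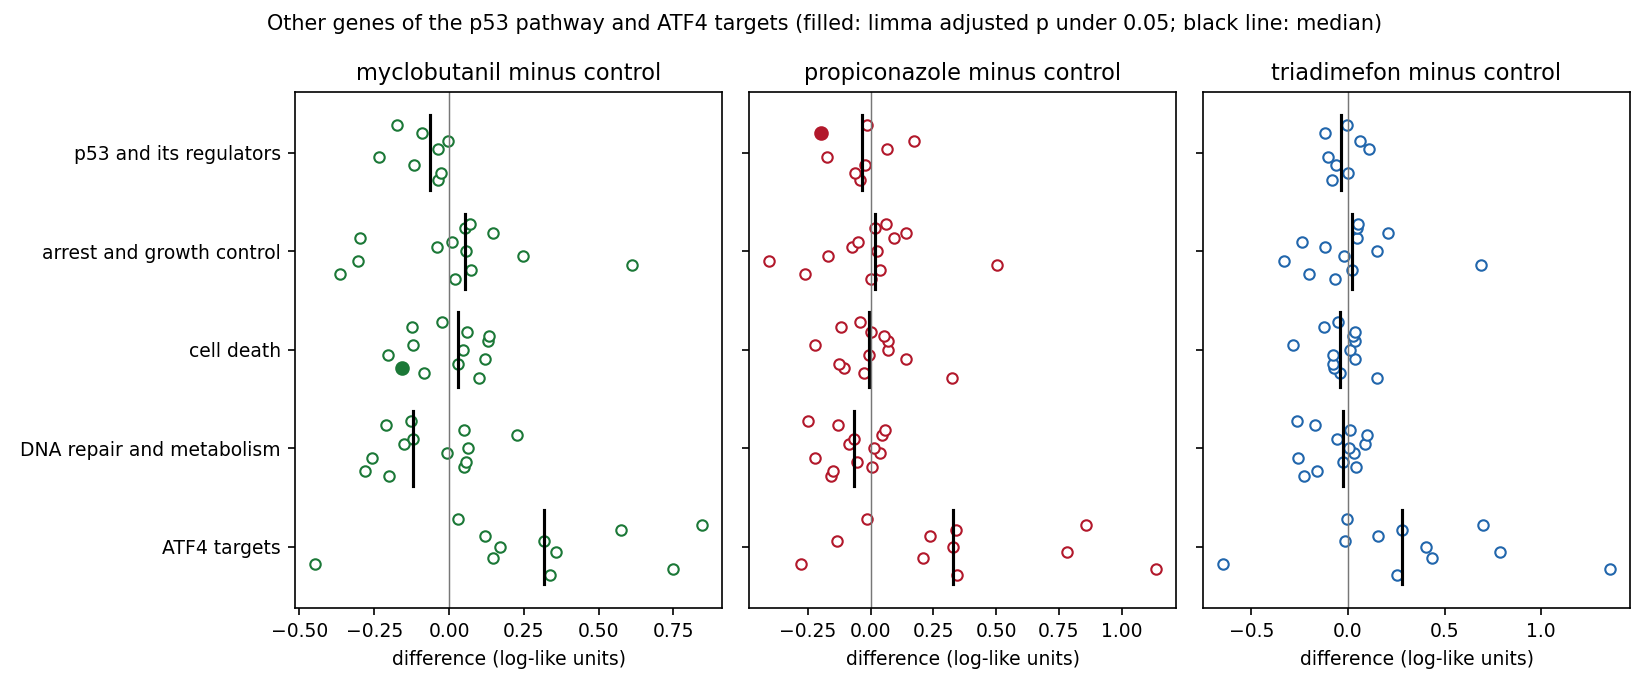
Differences of each compound minus control (horizontal axes, log-like units, scales differ) for the tested genes of 4 lists of other p53 pathway genes and of ATF4 targets; each circle is 1 gene, the black line is the list median, and filled circles had a limma adjusted p under 0.05. The filled circles are Bak1 under myclobutanil and Tp53bp1 under propiconazole, and the ATF4 medians lie between 0.28 and 0.33.

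Over the 12 arrays, the genes whose values ran most like those of Ccng1 among 11841 other tested genes were Lrrc47 (Pearson r 0.952), Pak1ip1 (0.929), Rrp8 (0.925), Zfp770 (0.924) and Lrrfip1 (0.919). For Rprm they were Atp2b2 (0.947), Agpat2 (0.943), Dipk2a (0.919), Insig2 (0.909) and Npas2 (0.909). Atp2b2 is dim, with a mean level of -0.122, next to the lowest mean among probe sets kept for testing, -0.123. Rrp8 had a mean level of -0.0504. Whether either was above background is not known. Insig2, a sterol-regulated retention protein of the endoplasmic reticulum, and Npas2, a clock transcription factor, fell along with Rprm under propiconazole (-0.88 and -0.72; limma adjusted p = 0.0152 and 0.00669) and triadimefon (-1.13 and -0.88; adjusted p = 0.00893 and 0.00477). Npas2 also fell under myclobutanil (-0.42; limma adjusted p = 0.0470), where Rprm was not called. No member was among the 5 genes closest to Ccng1 or Rprm. For Gadd45a, looked at after its spread was seen, the closest were Zfand2a (0.968), Dusp5 (0.967), Maff (0.962), Uspl1 (0.952) and Ddit3 (0.949), a set whose high arrays were again propiconazole replicate 3 and triadimefon replicate 2. These correlations are descriptions over arrays that fall into the 4 groups, so differences between groups enter them, and no p is given for them. Genes picked by likeness to Rprm are low where Rprm is low, so the falls of Insig2 and Npas2 are no separate result. Of the same 5 genes, Atp2b2 and Dipk2a were called under both propiconazole and triadimefon. Agpat2 was called under triadimefon only (propiconazole -0.23, limma adjusted p = 0.156).

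**Figure D4:**
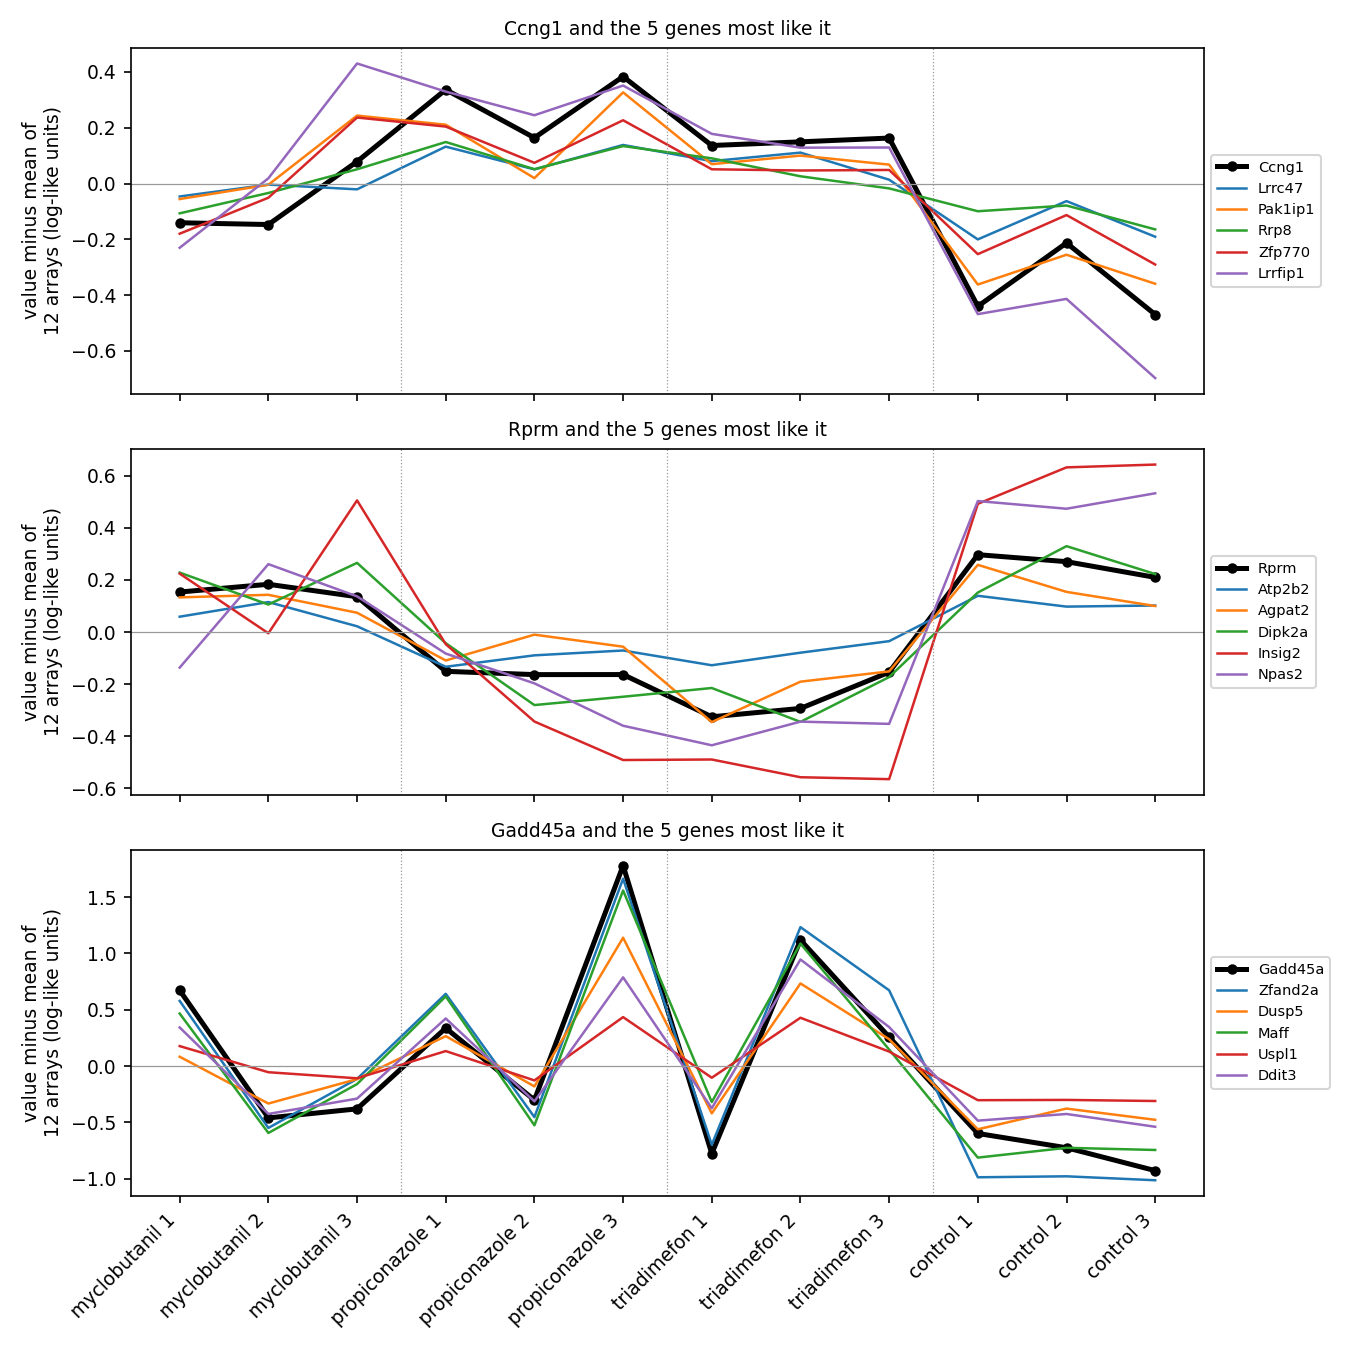
Expression of Ccng1, Rprm and Gadd45a (black) and of the 5 genes most like each (colours), as the value minus that gene's mean over the 12 arrays (vertical axis, log-like units), by array (horizontal axis). Ccng1 and its closest genes are all lowest on control replicates 1 or 3, though Rrp8 and Zfp770 are lower on myclobutanil replicate 1 than on some control arrays, Rprm and its closest genes are low under propiconazole and triadimefon, and Gadd45a peaks on propiconazole replicate 3.

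Some cell type markers and cell cycle genes were also called. Over all probe sets, limma called 1.82% under myclobutanil, 1.43% under propiconazole and 0.769% under triadimefon. At an unadjusted p under 0.05 by limma, these shares were 21.1%, 14.5% and 13.4%. Of 9 tested hepatocyte markers, only Cyp2e1 was called under myclobutanil (-0.59, limma adjusted p = 0.0259) and only Apoa1 under propiconazole (0.49, adjusted p = 0.0278). The rise of Apoa1 was not shared by most of the list. Of the 9 differences, 3 were above 0 under propiconazole (median -0.02) and 1 under myclobutanil (median -0.12). Of 9 tested Kupffer cell and macrophage markers, 5 fell under myclobutanil. The mean level of the 9 was 0.237 to 0.815 on myclobutanil arrays and 1.03 to 1.17 on propiconazole arrays. It was 1.02 to 1.16 on triadimefon arrays and 1.09 to 1.25 on control arrays. None of these markers was called under propiconazole or triadimefon, with 0 at an unadjusted p under 0.05 by limma in both. Of 6 endothelial markers, Kdr fell under myclobutanil, and Kdr and Tek fell under propiconazole. Among 24 tested cell cycle genes, 6 rose under myclobutanil, including Cdk1, Ccnb1 and Mki67, and none was called under propiconazole (8 at an unadjusted p under 0.05) or triadimefon (4). Of 6 tested stellate cell markers, only Lrat was called, lower under myclobutanil and propiconazole. The differences of the 6 were above 0 for 1 under myclobutanil, 2 under propiconazole and 4 under triadimefon. Of 3 tested cholangiocyte markers, none was called against control. Of 11 leukocyte markers none was called by limma in any comparison with control, with 5 at an unadjusted p under 0.05 for myclobutanil and 0 for the other compounds. The part of these cell types in the values of the p53 targets was not tested.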

How the data were processed

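Per the labels' protocols, total RNA of single livers was labelled and hybridised to Affymetrix Rat Genome 230 2.0 arrays. The deposited series matrix holds 1 score per probe set and array; how the authors summarised and normalized it, and its log base, is not stated in the sources used here. The plan assumed log-scale values, and the base could not be settled, so the scores were used unconverted. Values were quantile normalized, control probe sets and the 30% with the lowest mean were left out (9313), and 21729 were fitted with limma 3.58.1 (R 4.3.3; 4 group means, intensity trend, 8 residual degrees of freedom). Benjamini-Hochberg adjustment ran over all probe sets of each comparison, and an adjusted p under 0.05 was called, in both directions. The fit was tested on simulated data. Each gene is represented by its tested probe set with the highest mean; names come from the platform annotation, updated through RefSeq (GRCr8). The members and lists were chosen with earlier results of these data known. All members are named, with up to 4 called genes of each list in a comparison, or, with no call, the 1 of smallest p; not all of those are printed. The F test, promoters and most alike genes are also reported. Python 3.11.15, pandas 2.3.3 and matplotlib 3.10.9 were used for tables and figures. The replicates are separate rats, so the number of arrays limits precision. Alternatives were median centring, deposited values, other filters, no trend, array weights, a replicate block, only the groups compared, and leaving out each array. Replicate numbers did not pair the arrays: of 18 same-number pairs, deviations correlated by -0.494 to 0.495.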

Additional observations from a re-analysis of the deposited data

How the results depend on the processing

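The call of Rprm under propiconazole and triadimefon held under every alternative that tested Rprm, and that of Ccng1 under propiconazole under every alternative except leaving out control replicate 3. Array weights gave 1670, 1310 and 1021 called probe sets for myclobutanil, propiconazole and triadimefon against control, 344 for myclobutanil against propiconazole and 1747 by the F test; with them 4 member genes were called under propiconazole (Sesn1, adjusted p = 0.0263, and Tp53inp1, 0.0356, were added), 2 between myclobutanil and propiconazole (Ccng1, -0.42, 0.0185; Rprm, 0.34, 0.00298) and 4 by the F test. With 50% of dim probe sets left out, Rprm was not tested, which left 1 member gene called under propiconazole, 1 under triadimefon and 1 by the F test. Myclobutanil against propiconazole gave 1 called probe set with median centring, 1 with deposited values, 2 with the 50% filter and 5 with no trend, against 0. With the replicate number as a block, 147, 121 and 87 probe sets were called against control and 59 by the F test, and 1 member gene was called under triadimefon and 1 by the F test, Ccng1 not passing (adjusted p = 0.0683 and 0.0633); the numbers share no pairing, as 3 of 18 same-number pairs correlated above 0.1 and 0 of 12 arrays correlated best with their own number throughout. With only the 2 groups compared, 9, 644 and 607 probe sets were called against control, and Tp53inp1 was called under propiconazole (adjusted p = 0.0355).

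Leaving out each array in turn gave 30 to 924, 36 to 981 and 6 to 613 called probe sets for myclobutanil, propiconazole and triadimefon against control, 0 to 29 for myclobutanil against propiconazole and 8 to 693 by the F test. Called member genes ran from 1 to 3 under propiconazole, 1 to 2 under triadimefon, 0 to 1 between myclobutanil and propiconazole and 1 to 2 by the F test. Signs turned only for differences near 0. With median centring Sesn2 was at 0.0131 under propiconazole and 0.0155 under triadimefon, and Sesn1 at 0.0319 under triadimefon; with deposited values Sesn1 was at 0.0213 and Sesn2 at 0.00485 under triadimefon. With 1 array left out Sesn2 ran from -0.25 to 0.13 under propiconazole and -0.17 to 0.11 under triadimefon, Sesn1 from -0.0518 to 0.0282 under triadimefon, and Mdm2 from -0.11 to 0.12 between myclobutanil and propiconazole. The falls of Bak1 and Tp53bp1, for which the alternatives were added after seeing the data, had adjusted p of 0.0304 to 0.230 and 0.0127 to 0.119 over the other settings. The cause of these changes was not tested. The files hold no detection calls, so signal over background could not be checked for dim probe sets such as those of Rprm, Bak1 and Tp53inp1.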
